A study of Mus musculus with 6 samples.

Results

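The 10 genes described here code for RNA-binding proteins that set splicing patterns in neurons: Srrm3, Srrm4, Rbfox1, Rbfox2, Rbfox3, Nova1, Nova2, Khdrbs2, Khdrbs3 and Qk. They were chosen by name, out of 52550 genes in the count table, and 52 of the 40961 splicing events in the junction table lie in them. RNA was taken from the hippocampus of male C57BL/6 J mice that had been injected on both sides of CA1, at 8 weeks of age, with an adeno-associated virus (AAV). The controls (3 libraries, labelled wild type) received a virus with a control shRNA, so they also carry the surgery and a virus. The other 3 libraries, labelled hnRNPDL-KD and shortened here to L-DL KD, received a virus with shRNAs against the long form of hnRNP DL (L-DL), a nuclear RNA-binding protein. One label field of these libraries reads knockdown and another gives a -/- genotype, and they are treated here as the knockdown that the study describes. In the vector each shRNA was driven by an H1 promoter, which is not restricted to one cell type, while the CamkIIα promoter drove only the fluorescent reporter. The control virus was used at a higher titre than the L-DL virus. The sources used here do not say how long after injection RNA was taken or whether each library came from 1 mouse or a pool, so the p-values measure the spread between these libraries.

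As background, these proteins read short motifs in pre-mRNA and switch cassette exons on or off according to where they bind. Rbfox proteins bind GCAUG elements, Nova proteins bind clusters of YCAY, and the STAR proteins Khdrbs2 (SLM1), Khdrbs3 (SLM2) and Qk (quaking) bind short A and U rich elements. Srrm4 and Srrm3 are serine and arginine rich proteins that favour the inclusion of microexons, the very short exons of neuronal transcripts. Rbfox3 is the protein known as NeuN, Khdrbs3 and Khdrbs2 act on an alternative segment of the neurexins, and Qk is best known from glia, where it acts on myelin transcripts.

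The exons on which the splicing results turn are shown first, as they stand in GENCODE vM21 transcripts (build GRCm38), written in the sense of the transcript. The 40 nt and 43 nt exons of Rbfox1 and Rbfox2 are alternatives near the end of the coding sequence, known as the brain-type and muscle-type exons. Capitals in the Rbfox2 lines mark the bases that differ from Rbfox1.
Rbfox1, 40 nt exon, chr16:7363865-7363904, plus strand: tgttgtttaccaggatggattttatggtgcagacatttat
Rbfox2, 40 nt exon, chr15:77094451-77094490, minus strand: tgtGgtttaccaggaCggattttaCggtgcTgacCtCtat
Rbfox1, 43 nt exon, chr16:7369801-7369843, plus strand: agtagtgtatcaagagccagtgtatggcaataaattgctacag
Rbfox2, 43 nt exon, chr15:77091812-77091854, minus strand: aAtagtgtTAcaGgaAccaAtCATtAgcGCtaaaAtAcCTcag
The 40 nt exons of both genes were identical at 34 of 40 positions (85%), and the 43 nt exons at 27 of 43 (62.8%). Both lengths leave a remainder of 1 after division by 3, so a transcript with either exon keeps the same downstream reading frame and a transcript with neither does not share it.

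The next set holds target exons, that is, exons described as regulated by proteins of these families, of which an exon of Nrxn3, the 2 exons of Agrn and that of Itsn1 are printed as examples. In each line the exon is in capitals between 10 bases of each neighbouring exon.
Nrxn3, 90 nt exon, chr12:90199147-90199236, plus strand: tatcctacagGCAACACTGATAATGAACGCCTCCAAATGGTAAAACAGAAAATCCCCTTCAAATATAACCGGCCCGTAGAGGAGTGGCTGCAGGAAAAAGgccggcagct
Agrn, 24 nt exon, chr4:156168546-156168569, minus strand: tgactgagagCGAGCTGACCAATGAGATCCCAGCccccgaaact
Agrn, 33 nt exon, chr4:156167777-156167809, minus strand: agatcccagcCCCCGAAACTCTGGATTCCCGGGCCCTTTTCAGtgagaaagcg
Itsn1, 15 nt exon, chr16:91842628-91842642, plus strand: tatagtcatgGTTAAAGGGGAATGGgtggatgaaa
The Nrxn3 exon is the alternatively spliced segment 4 in the extracellular part of the protein, and all 4 exons have lengths that keep the reading frame.

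Each library held 16052529 to 17913064 counts on genes and 6760349 to 7939931 junction counts on the listed events. The targeted gene, Hnrnpdl, stood at 176, 184 and 171 CPM in the controls and 217, 150 and 173 CPM in the L-DL KD-labelled libraries, where CPM is the usual measure of counts relative to a scaled library size. The groups overlapped and the log2 fold change was 0.03 (SE 0.12, edgeR adjusted p = 0.898). Gene counts sum all transcripts of Hnrnpdl, so they do not measure the L-DL isoform by itself. The study reports reduced L-DL protein in the injected hippocampus by immunoblotting, which gene counts do not measure. Since the gene counts showed no loss, these 3 libraries are named by their label throughout, and each direction given is between labelled groups. The choroid plexus markers Ttr, Folr1 and Kl summed to 408 to 4464 CPM in the controls and 26.0 to 4996 CPM in the L-DL KD-labelled libraries, a spread within both groups that the treatment does not order.

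Of the 10 regulators, 5 fell (Rbfox3, Khdrbs3, Srrm3, Rbfox2 and Rbfox1), 2 rose (Nova1 and Qk) and 3 did not pass an adjusted p of 0.05 (Srrm4, Nova2 and Khdrbs2). The background was high: among the 17621 genes tested 30.5% passed, 15% lower and 15.6% higher, so the 2 rises stand for a share close to that of all genes. In 7 of the 10 genes the 3 controls and the 3 L-DL KD-labelled libraries did not overlap, against 47.2% of all genes. The median log2 fold change was -0.42 over the 10 genes and 0.01 over all genes. Within the Srrm, Khdrbs and Rbfox families the members differed in size of change, from 2.55-fold lower for Rbfox3 to values near the controls for Khdrbs2.

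**Figure D1:**
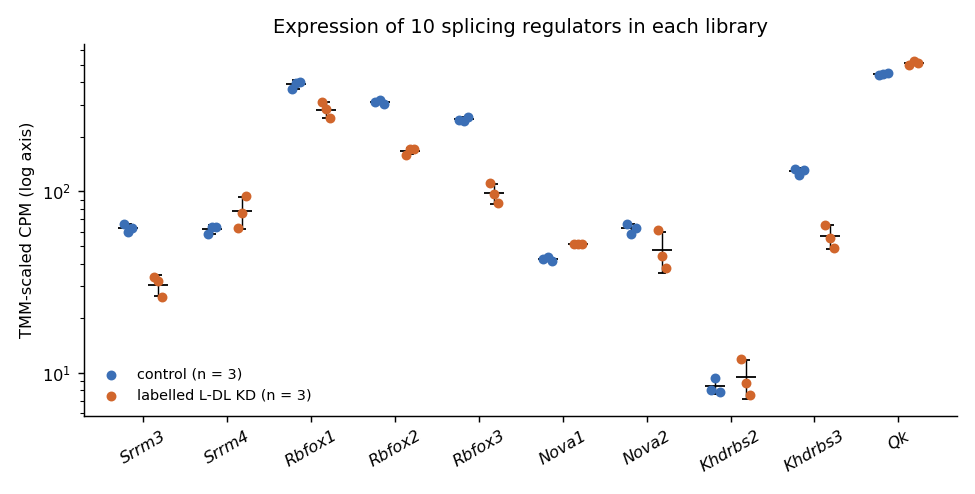
CPM of the 10 regulators in each library (points, 3 controls and 3 L-DL KD-labelled libraries per gene) with the mean and SD of each group. Rbfox3, Khdrbs3, Srrm3 and Rbfox2 separate widely, while Srrm4, Nova2 and Khdrbs2 overlap between groups.

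Markers of several cell types also differed between the groups in the same libraries. Of 8 neuron markers, 7 fell and 1, the neurofilament gene Nefl, rose, and their summed level was 4586 to 4798 CPM in the controls and 2885 to 3378 CPM in the L-DL KD-labelled libraries. Rbfox3 is itself on that list, and without it 6 of 7 fell, with a median log2 fold change of -0.55. All 7 microglia markers rose, from a sum of 746 to 951 CPM to one of 1666 to 2036 CPM. Interneuron markers summed to 615 to 692 CPM and 240 to 448 CPM, with 4 of 7 lower and 0 higher by edgeR. CA1 pyramidal markers summed to 396 to 486 CPM and 287 to 339 CPM, with 3 of 6 lower and 1 higher. Sums of dentate granule (424 to 475 and 436 to 467 CPM) and CA3 pyramidal markers (213 to 227 and 184 to 217 CPM) overlapped between groups. Endothelium markers summed to 213 to 228 CPM and 261 to 311 CPM, with 2 of 4 higher and 0 lower. Fewer neurons and less RNA of a gene per neuron cannot be told apart in such bulk tissue, and the part of cell make-up in the changes of the regulators was not tested.

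Rbfox3 (chr11:118489762-118911597, minus strand) had the largest change of the 10. It was counted at 249, 245 and 256 CPM in the controls and at 111, 97.0 and 86.0 CPM in the L-DL KD-labelled libraries. Every L-DL KD-labelled library lay far under every control, and the fall of 1.35 on the log2 scale (SE 0.10, adjusted p = 0.000135) placed Rbfox3 at percentile 1.73 of the log2 fold changes of all genes. Rbfox2 (chr15:77078990-77307004, minus strand), which unlike Rbfox3 is also expressed outside neurons, stood at 313, 319 and 302 CPM in the controls. The L-DL KD-labelled libraries held 159, 170 and 171 CPM of Rbfox2, a log2 fold change of -0.90 (SE 0.06, adjusted p = 0.000135). The replicates of Rbfox2 were tight in both groups, with SDs of 8.47 and 6.60 CPM around means of 311 and 167.

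Rbfox1 (chr16:5885355-7411526, plus strand), a neuron and muscle family member whose loss is linked to seizures, fell less. Its 3 controls held 365, 398 and 403 CPM and the L-DL KD-labelled libraries 310, 286 and 253 CPM, which gave a log2 fold change of -0.46 (SE 0.09, adjusted p = 0.00636). The groups did not overlap, but 16.4% of all genes had a lower log2 fold change. The proportions within the family differed: per library, the ratio of Rbfox1 to Rbfox3 counts was 1.47, 1.63 and 1.58 in the controls and 2.79, 2.95 and 2.94 in the L-DL KD-labelled libraries, 1.86 times as high. The ratio of Rbfox1 to Rbfox2 was 1.17, 1.25 and 1.34 in the controls and 1.95, 1.68 and 1.48 in the L-DL KD-labelled libraries, or 1.35 times. Both ratios were apart between groups with an exact two-sided permutation p of 0.1, the smallest that 3 against 3 libraries allow. These ratios, and those given below for other members, were added after seeing the data and are a description.

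Srrm3 fell and Srrm4 did not pass the test. Srrm3 (chr5:135806890-135874772, plus strand) stood at 66.5, 59.7 and 62.7 CPM in the controls and at 33.6, 32.0 and 26.0 CPM in the L-DL KD-labelled libraries, 2.06-fold lower (log2 fold change -1.04, SE 0.11, adjusted p = 0.000435). Srrm4 (chr5:116439275-116591817, minus strand) held 58.0, 64.0 and 63.9 CPM in the controls and 62.8, 75.6 and 94.6 CPM in the L-DL KD-labelled libraries. The lowest library of Srrm4 labelled L-DL KD lay among the controls, and its log2 fold change of 0.33 (SE 0.14) did not pass (adjusted p = 0.113). It passed when L-DL KD replicate 1 was left out (0.46, adjusted p = 0.00904) and was 0.16 without L-DL KD replicate 3 (adjusted p = 0.280). The 2 genes had near equal counts in the controls, with Srrm4 to Srrm3 ratios of 0.872, 1.07 and 1.02, and the ratios were 1.87, 2.37 and 3.63 in the L-DL KD-labelled libraries, 2.56 times as high (exact permutation p = 0.1, the smallest possible). An antisense gene, Srrm4os, overlaps 0.78% of the exon bases of Srrm4.

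Among the STAR genes Khdrbs3 fell, Khdrbs2 did not pass and Qk rose. Khdrbs3 (chr15:68928420-69101211, plus strand) was counted at 132, 123 and 132 CPM in the controls and 65.6, 55.3 and 48.8 CPM in the L-DL KD-labelled libraries. That is 2.28-fold lower, with groups far apart (log2 fold change -1.19, SE 0.11, adjusted p = 0.000294). Khdrbs2 (chr1:32172714-32658568, plus strand), its closest relative, was low throughout, at 8.07, 9.35 and 7.81 CPM in the controls and 12, 8.80 and 7.57 CPM in the L-DL KD-labelled libraries. Khdrbs2 did not pass (log2 fold change 0.17, 95% interval -0.22 to 0.55, adjusted p = 0.561), and without L-DL KD replicate 1 the value was -0.04. The Khdrbs2 to Khdrbs3 ratio was 0.0611, 0.0763 and 0.0592 in the controls and 0.182, 0.159 and 0.155 in the L-DL KD-labelled libraries, or 2.54 times, again with the smallest possible exact permutation p of 0.1.

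Qk (chr17:10202601-10319854, minus strand) rose slightly, from 436, 443 and 447 CPM to 497, 524 and 511 CPM. The 2 groups were apart and narrow, yet the log2 fold change was only 0.21 (SE 0.06, adjusted p = 0.0341), and 67.6% of all genes had a lower value. The call on Qk was lost without any filter on low counts (adjusted p = 0.0872), without control replicate 1, 2 or 3 (0.129, 0.113 and 0.0933 in turn) and without L-DL KD replicate 2 (0.0820). Of the glial lists that stand beside it, oligodendrocyte markers had 1 of 7 higher (Mag), precursor markers 3 of 4 higher and astrocyte markers 1 of 6 higher and 3 lower. The part of glial content in the Qk value was not tested.

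The Nova genes, which code for neuron-specific KH-domain proteins, had log2 fold changes of opposite sign, of which only that of Nova1 passed. Nova1 (chr12:46694517-46818929, minus strand) had 42.5, 43.6 and 41.5 CPM in the controls and 51.0, 51.5 and 51.0 CPM in the L-DL KD-labelled libraries. The groups were clearly apart (log2 fold change 0.27, SE 0.07, adjusted p = 0.0179), although the call was lost without the filter on low counts (0.0516) and without control replicate 1, 2 or 3 (0.0679, 0.0571 and 0.0694 in turn). Nova2 (chr7:18925888-18965319, plus strand) held 66.3, 58.3 and 62.9 CPM in the controls and 61.3, 44.0 and 37.8 CPM in the L-DL KD-labelled libraries. One library of Nova2 labelled L-DL KD lay within the controls, and the log2 fold change of -0.39 (SE 0.16) did not pass (adjusted p = 0.109), while without L-DL KD replicate 1 it was -0.61 (adjusted p = 0.00127) and without L-DL KD replicate 3 it was -0.24 (adjusted p = 0.256). An antisense gene, Gm26821, covers 31.7% of the exon bases of Nova2. Since nothing states that strand was used in counting, reads of Nova2 and Gm26821 cannot be told apart there. A same-strand gene, Gm33869, overlaps 3.54% of the exon bases of Nova1. The Nova1 to Nova2 ratio was 0.641, 0.748 and 0.659 in the controls and 0.832, 1.17 and 1.35 in the L-DL KD-labelled libraries, 1.61 times as high (exact permutation p = 0.1, the smallest possible).

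**Figure D2:**
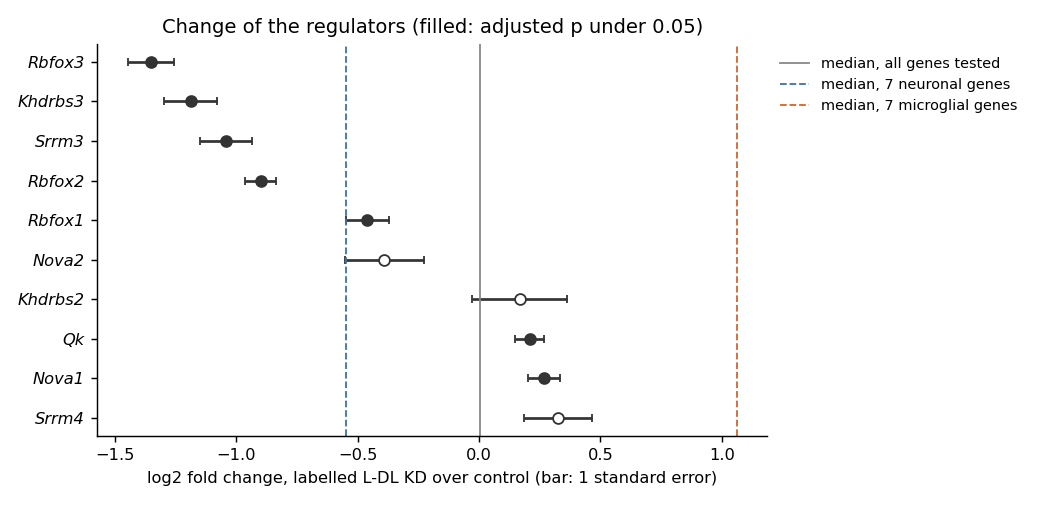
Log2 fold change (L-DL KD minus control, edgeR) of each regulator with a bar of 1 SE (filled points passed an adjusted p of 0.05), beside lines at the median of all genes tested, of 7 neuron markers without Rbfox3 and of 7 microglia markers. Rbfox3, Khdrbs3, Srrm3 and Rbfox2 lie below the neuron marker median of -0.55, and all 10 regulators lie below the microglia median of 1.06.

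**Figure D3:**
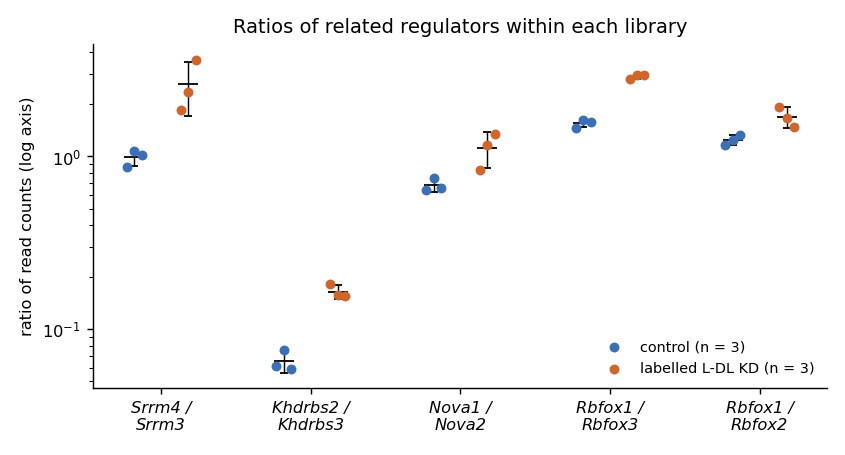
Ratio of the counts of a pair of family members within each library (log axis), one point per library with the mean and SD of each group. In each of the 5 pairs the 3 L-DL KD-labelled libraries lie above the 3 controls. The pairs were chosen after seeing the data, so their shared direction is a description.

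Per kilobase of merged exon, the order of levels in the controls was Rbfox1 (88.4 ± 4.77 CPM per kb, SD, n = 3), Rbfox3 (43), Rbfox2 (38.2), Khdrbs3 (35.2), Qk (31.0), Srrm3 (9.83), Nova2 (7.47), Srrm4 (7.14), Nova1 (4.86) and Khdrbs2 (0.818). Among neighbours in that order only Nova2 and Srrm4 overlapped between their control libraries. In the L-DL KD-labelled libraries Rbfox1 was still first, at 64.3 CPM per kb. Qk came next at 35.9, followed by Rbfox2 at 20.5, Rbfox3 at 16.8 and Khdrbs3 at 15.4, with Rbfox3 and Khdrbs3 overlapping. Srrm3 went from the highest to the lowest of the 4 genes Srrm3, Nova2, Srrm4 and Nova1, at 4.77 CPM per kb against 8.95 for Srrm4, although its libraries overlapped those of Nova2. The order depends on the length used: per kilobase of coding sequence Qk was first in the controls, at 407 CPM per kb, ahead of Rbfox1 at 289. On that scale Srrm3 in the controls, at 32.1, already lay under Nova2 at 37.5 and Srrm4 at 33.7.

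A list of 20 paralogs, partners and opposing regulators gives the wider setting. Of the 18 that could be tested, 4 rose and 6 fell, against 15.6% higher and 15% lower among all genes, with a median log2 fold change of -0.06. The largest falls were those of Elavl2 (-1.28, adjusted p = 0.00029) and Elavl4 (-1.16, adjusted p = 0.00066), which code for neuronal proteins that bind AU-rich elements, followed by Ptbp2 (-0.35, adjusted p = 0.00573), the neuronal polypyrimidine tract-binding protein. Ptbp2 was counted at 89.9, 92.8 and 96.3 CPM in the controls and 74.5, 74.6 and 70.3 CPM in the L-DL KD-labelled libraries. The largest rises were those of Rbm24 (0.80, adjusted p = 0.00517), known from muscle splicing, and of the polypyrimidine tract-binding proteins Ptbp1 (0.58, adjusted p = 0.00678) and Ptbp3 (0.47, adjusted p = 0.0102). Ptbp1, the form that non-neuronal cells use, stood at 40.7, 42.2 and 40.6 CPM in the controls and 61.8, 51.9 and 71.0 CPM in the L-DL KD-labelled libraries, with no overlap. Rest, the repressor of neuronal genes that also acts on Srrm4, rose by 0.40 on the log2 scale (adjusted p = 0.0424).

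The junction table lists 52 events in the 10 genes: 40 skipped exons, 9 pairs of mutually exclusive exons and 3 alternative 3′ splice sites. Of these 33 had enough counts to be tested, and 19 did not, 17 of them because one form had a mean of less than 1 count per library. Inclusion is given as PSI, the share of transcripts with the exon (from 0 to 1) after dividing each count by the length of its form. At an unadjusted p of 0.05 in edgeR 8 of the 33 events passed, 6 in Rbfox1, 1 in Rbfox2 and 1 in Srrm4, where 13.3% of all 18829 tested events did. After adjustment 0 of the 33 passed, against 0.255% of all events, and limma also gave 0 after and 9 before adjustment. In 8 of the 33 the groups did not overlap, against 18.4% of all events. Several of the Rbfox1 events share the same junction reads, so they are not separate observations.

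The lowest p-values among the member events belonged to the 40 nt exon of Rbfox1 printed above. The brain-type 40 nt exon had a PSI of 0.931, 0.970 and 0.968 in the controls and 0.874, 0.879 and 0.872 in the L-DL KD-labelled libraries, from 393 to 704 counts per library. All 3 L-DL KD-labelled libraries lay under all controls, and the change of -0.0813 had an unadjusted p of 0.000543 in edgeR and an adjusted p of 0.0801. Set directly against the muscle-type 43 nt exon, the 40 nt exon had a share of the pair of 0.990, 0.990 and 0.983 in the controls and 0.960, 0.940 and 0.925 in the L-DL KD-labelled libraries (edgeR unadjusted p = 0.000151, adjusted p = 0.0546). This was the closest of the 33 events to the threshold, and it passed when each exon was represented by 1 event (adjusted p = 0.0494) and without the first L-DL KD-labelled library of the table (0.0409), but in no other alternative. Set against the 65 nt exon that follows (chr16:7375905-7375969), the 40 nt exon had a share of 0.531, 0.458 and 0.623 in the controls and 0.360, 0.409 and 0.320 in the L-DL KD-labelled libraries (edgeR unadjusted p = 0.0201, adjusted p = 0.294). As a skipped exon, the 65 nt exon had a PSI of 1, 1 and 1 in the controls and 1, 0.997 and 1 in the L-DL KD-labelled libraries. That share therefore does not measure use of the 40 nt exon by itself. The 43 nt exon tested as a skipped exon by itself rested on 24 to 88 counts and did not pass (edgeR unadjusted p = 0.430).

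Shares of 3 forms (40 nt exon, 43 nt exon or neither) were taken from the length-corrected junction counts of the skipped-exon events of both exons. Another event of the Rbfox1 40 nt exon, with other reads, is left out, so these are not shares of all transcripts. In Rbfox1 the 40 nt form made up 92.3%, 96.0% and 95.2% in the controls and 84.3%, 83.2% and 81.4% in the L-DL KD-labelled libraries. The share with the 43 nt exon was 0.935%, 0.963% and 1.67% in the controls and 3.54%, 5.35% and 6.60% in the L-DL KD-labelled libraries. The form with neither exon made up 6.79%, 3.0% and 3.12% in the controls and 12.1%, 11.4% and 12% in the L-DL KD-labelled libraries. Both minor forms were higher in every L-DL KD-labelled library than in every control, each with an exact permutation p of 0.1, the smallest possible. In Rbfox2 the same 3 forms overlapped between groups: the 40 nt form made up 82.8%, 92.0% and 85.2% in the controls and 54.2%, 85.7% and 74.4% in the L-DL KD-labelled libraries (exact permutation p = 0.3). The Rbfox2 40 nt exon by itself had a PSI of 0.837, 0.938 and 0.852 in the controls and 0.561, 0.857 and 0.776 in the L-DL KD-labelled libraries (edgeR unadjusted p = 0.0470, adjusted p = 0.373). That difference of -0.144 rested on 1 library: without the first L-DL KD-labelled library of the table it was -0.0592 (unadjusted p = 0.285).

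**Figure D4:**
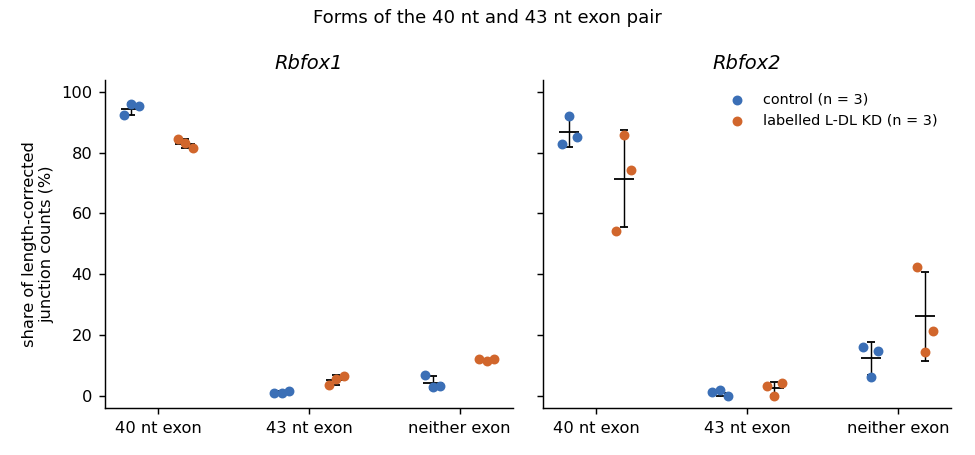
Share of Rbfox1 and Rbfox2 transcripts (percent of length-corrected junction counts) with the 40 nt exon, the 43 nt exon or neither, one point per library with the mean and SD of each group. In Rbfox1 the 43 nt form lies at 0.935 to 1.67% in the controls and 3.54 to 6.60% in the L-DL KD-labelled libraries, while the Rbfox2 forms overlap.

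Events further upstream in Rbfox1 differed by exon, and none passed adjustment. The 54 nt exon at chr16:7306408-7306461 had a PSI of 0.927, 0.937 and 0.938 in the controls and 0.984, 0.976 and 0.970 in the L-DL KD-labelled libraries (edgeR unadjusted p = 0.00156, adjusted p = 0.124). A second event of this exon, with another flanking exon, had an unadjusted p = 0.00764 in edgeR, and 1 event of the 81 nt exon after it (chr16:7330362-7330442) an unadjusted p = 0.0103, with 1 or no skipping read in each L-DL KD-labelled library and 3 to 6 in each control. Another event of the same 81 nt exon, on more counts (397 to 689), had PSIs of 0.826, 0.850 and 0.797 in the controls and 0.776, 0.849 and 0.805 in the L-DL KD-labelled libraries, which overlapped (edgeR unadjusted p = 0.664). The tested skipped exons with most counts, a 240 nt exon of Rbfox1 (edgeR unadjusted p = 0.122) and a 54 nt exon of Rbfox3 (unadjusted p = 0.152), were included at 0.985 or more in every library. Both the 54 nt and the 81 nt exon are multiples of 3 in length and keep the frame. No skipping event is listed for the 93 nt exon of Rbfox1, which codes for a piece of the RNA-binding domain. The matching 93 nt exons of Rbfox2 and Rbfox3 were nearly always included, with mean PSIs of 0.979 and 0.977 for Rbfox2 (edgeR unadjusted p = 0.744) and 0.998 and 0.988 for Rbfox3 (unadjusted p = 0.108) in the controls and L-DL KD-labelled libraries.

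Outside the Rbfox genes, 2 tested events had groups that did not overlap, 1 in Srrm4 and 1 in Nova1. The 16 nt exon of Srrm4 (chr5:116454673-116454688) was included at 0.185, 0.111 and 0.115 in the controls and 0, 0.0848 and 0.0554 in the L-DL KD-labelled libraries, which do not overlap but rest on 19 to 54 counts (edgeR unadjusted p = 0.172). The 204 nt exon of Srrm4 (chr5:116449424-116449627) had 0 skipping counts in all controls and in 1 L-DL KD-labelled library, and 4 and 3 in the other L-DL KD-labelled libraries, with unadjusted p = 0.0312 and adjusted p = 0.335 in edgeR. For the 72 nt exon of Nova1 (chr12:46713498-46713569), an exon that Nova1 is known to control in its own transcript, PSI was 0.964, 0.937 and 0.945 in the controls and 0.986, 1 and 0.976 in the L-DL KD-labelled libraries. These did not overlap, from 53 to 105 counts, and the unadjusted edgeR p was 0.0736 (adjusted 0.428). The tested events with most counts in Qk (edgeR unadjusted p = 0.868), Khdrbs3 (unadjusted p = 0.923) and Nova2 (unadjusted p = 0.942) gave PSI differences of 0.00615, -0.000419 and 0.00441 from the controls. Of the 5 members that fell, Srrm3 had 3 listed events and none that could be tested, and its 20 nt exon, with 4 to 29 counts, had PSIs of 0, 0.380 and 0.129 in the controls and 0.0639, 0 and 0 in the L-DL KD-labelled libraries, which overlapped.

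Exons described as targets of these proteins were measured in the same libraries. Of 10 listed exons 9 were found in the table and 8 could be tested, and 7 of those had an unadjusted edgeR p under 0.05, with 2 higher and 5 lower in the L-DL KD-labelled libraries (background 4.96% higher and 8.30% lower). After adjustment over all events 0 passed in edgeR and 0 in limma, which gave 6 before adjustment. In 7 of the 8 tested exons the groups did not overlap, against 18.4% of all events. The list was made with earlier results of these data known, so its counts are a description.

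The 90 nt exons of Nrxn2 (chr19:6513716-6513805, plus strand) and Nrxn3, synaptic adhesion genes, belong to the segment that Khdrbs3 and Khdrbs2 are known to leave out, and both had higher PSI values in the L-DL KD-labelled libraries. In Nrxn2 the exon had a PSI of 0.418, 0.432 and 0.412 in the controls and 0.566, 0.648 and 0.689 in the L-DL KD-labelled libraries (edgeR unadjusted p = 0.000487, adjusted p = 0.0781). Nrxn3 had 0.468, 0.437 and 0.448 in the controls and 0.767, 0.778 and 0.643 in the L-DL KD-labelled libraries, with a difference of 0.278 against 0.214 in Nrxn2 (edgeR unadjusted p = 0.00183, adjusted p = 0.130). In both genes the lowest L-DL KD-labelled library lay above the highest control. The genes themselves differed in level: Nrxn3 was lower in the L-DL KD-labelled libraries (155 ± 10.5 against 89.6 ± 24.4 CPM, SD, n = 3), while Nrxn2 was at 237 ± 18.8 and 221 ± 2.17 CPM.

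The next exons were listed as regulated by Srrm4. As a gene Srrm4 did not pass (log2 fold change 0.33, edgeR adjusted p = 0.113), while Srrm3 fell. Among these exons, the 15 nt microexon of Itsn1 lies in an SH3 domain of this endocytic scaffold. It had a PSI of 0.525, 0.543 and 0.451 in the controls and 0.253, 0.216 and 0.156 in the L-DL KD-labelled libraries. The groups were far apart (difference -0.298, edgeR unadjusted p = 0.000361, adjusted p = 0.0688) at 137 to 173 counts per library. Inclusion of the 34 nt exon of Ptbp2, without which the transcript loses its frame, was 0.949, 0.914 and 0.871 in the controls and 0.786, 0.872 and 0.784 in the L-DL KD-labelled libraries, which overlapped (edgeR unadjusted p = 0.0390, adjusted p = 0.354). The 6 nt microexon of Apbb1, an adaptor of the amyloid precursor protein, was at 0.845, 0.787 and 0.797 in the controls and 0.778, 0.780 and 0.762 in the L-DL KD-labelled libraries, with no overlap (edgeR unadjusted p = 0.236). The 6 nt exon of Unc13b had only 10 to 18 counts and was not tested, and no 30 nt exon event was found for Daam1.

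Agrin, a synaptic proteoglycan, holds exons known as Nova targets. Of these, the 24 nt exon had lower PSI values in all L-DL KD-labelled libraries: 0.212, 0.229 and 0.380 in the controls and 0.111, 0.0703 and 0.0687 in the L-DL KD-labelled libraries (edgeR unadjusted p = 0.0008, adjusted p = 0.0953). The 33 nt exon beside it went from 0.125, 0.118 and 0.220 to 0.0287, 0 and 0.00868 (edgeR unadjusted p = 0.000188, adjusted p = 0.0569), on 17 to 34 inclusion counts per control and 6, 0 and 2 in the L-DL KD-labelled libraries. Both Agrn exons share their skipping counts, and Agrn itself was at 265 ± 12.7 and 245 ± 20.6 CPM (SD, n = 3). Of the Nova genes, Nova1 was higher in the L-DL KD-labelled libraries (log2 fold change 0.27, edgeR adjusted p = 0.0179). Nova2 did not pass (-0.39, adjusted p = 0.109). The 45 nt exon of the myelin gene Mag, which Qk is known to act on, was at 0.739, 0.733 and 0.681 in the controls and 0.481, 0.542 and 0.617 in the L-DL KD-labelled libraries, with no overlap (edgeR unadjusted p = 0.00184, adjusted p = 0.130). Mag as a gene rose, from 243 ± 15.4 to 398 ± 90.8 CPM (SD, n = 3). The part of changed cell make-up in these exons was not tested.

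**Figure D5:**
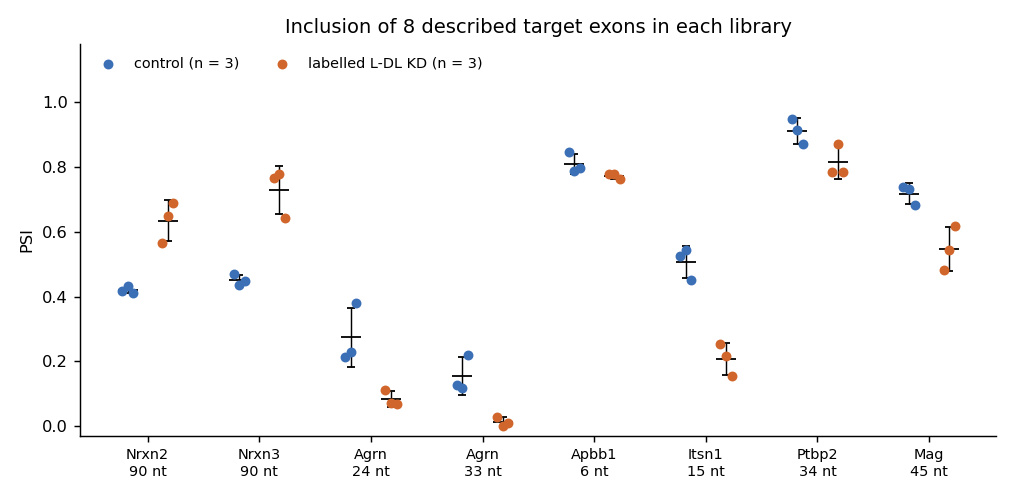
PSI (0 to 1) of each of the 8 tested target exons, one point per library, with the mean and SD of the controls and of the L-DL KD-labelled libraries side by side. The Nrxn2 and Nrxn3 exons are higher in the L-DL KD-labelled libraries, and the Agrn, Apbb1, Itsn1 and Mag exons are lower without overlap, while Ptbp2 overlaps.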

How the data were processed

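The submitters deposited gene counts of 6 libraries (52550 genes, 52403 with a symbol) and a table of inclusion and skipping junction counts made with rMATS. Per the labels, Bowtie 1.1.2, HISAT2 2.1.0 and HTSeq 0.6.1 were used with build mm10, without stated roles. The table's p-value, q-value and inclusion difference columns hold the authors' own comparison and were not used. Its first sample was taken as L-DL KD, since the study defines the inclusion difference as knockdown minus control, and its values carry no replicate numbers. Recomputed PSI values, which are fractions, differed from the deposited fractions by at most 0.0005.

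Gene counts were tested with edgeR 4.0.16 (quasi-likelihood, TMM, at least 10 counts in at least 3 libraries), with Benjamini-Hochberg adjustment over all 17621 genes. The 18829 events that averaged at least 20 junction counts per library and at least 1 of each form were tested with edgeR on inclusion and skipping counts with a term for each library. A gene or event was called changed at an adjusted p under 0.05. The scripts were checked on simulated data. The alternatives tried were limma 3.58.1, DESeq2 1.42.0, library-size scaling, different filters, a block for the replicate number, and fits without each single library. The ratios between members, the 3-form shares and the neuron list without Rbfox3 were added after seeing the data. Exon sequences and gene positions came from GENCODE vM21.

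Named were all 10 members, their events at an unadjusted p under 0.05 or apart by a PSI difference of at least 0.1, the tested event with most counts of each, exons of members with a described role, all target exons apart from 2 that are not reported here, and the 3 largest rises and falls among related regulators. Rest, the Srrm4 16 nt and Srrm3 20 nt exons were named after their values were seen. Members and lists were chosen with earlier results of these data known.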

Additional observations from a re-analysis of the deposited data

How the results depend on the processing

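The direction of all 5 members that fell, and their side of the threshold, held under every alternative run, with 5 to 6 members lower when 1 library was left out. Members that rose numbered 2, against 1 with a replicate block and 0 without a filter on low counts, and 0 to 3 when 1 library was left out. All members called numbered 5 to 9 over those leave-outs, related regulators 6 to 11 and cell type markers 35 to 55, while the genes called among all numbered 3498 to 6477 (1770 to 3236 higher and 1676 to 3241 lower).

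Over all events, those past adjustment numbered 48, against 0 with limma and 0 to 52 in the leave-outs, and those at an unadjusted p under 0.05 numbered 1986 to 2326. Member events past adjustment numbered 0, against 1 when each exon was represented by 1 event and 0 to 1 in the leave-outs, where 5 to 9 passed unadjusted. Target exons past adjustment numbered 0 to 2 in the leave-outs (2 without the first L-DL KD-labelled library of the splicing table), and 6 to 7 unadjusted. Leaving out 1 library turned the sign of values near 0: Khdrbs2 (-0.037 to 0.31), Hnrnpdl (-0.13 to 0.15; log2 fold changes), and the PSI differences of Nova2 (-0.0134 to 0.0332), Qk (-0.00148 to 0.0115), the Rbfox2 93 nt exon (-0.0117 to 0.00785) and Khdrbs3 (-0.00221 to 0.00116). Where a value moved, the cause was not tested.

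Libraries with the same replicate number did not deviate together (correlations across genes of 0.07, 0.18 and -0.16), and not every library correlated best with its own number, so the numbers do not pair the samples. With a replicate block 4635 genes passed against 5379 without it, and Qk did not pass (adjusted p = 0.0737). No event of Srrm3 or Khdrbs2 could be tested, in most because the skipping form averaged under 1 count and in the 20 nt exon of Srrm3 because counts were low.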
